A study of Mus musculus with 57 samples.

Results

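The Cyp2c family described here comprises 10 cytochrome P450 genes of mouse liver, Cyp2c29, Cyp2c37, Cyp2c38, Cyp2c39, Cyp2c40, Cyp2c50, Cyp2c54, Cyp2c55, Cyp2c67 and Cyp2c70, chosen by symbol from 54307 genes in the table. All 10 were found. The table holds 18 rows with a Cyp2c symbol when pseudogenes are counted, of which 5 are other Cyp2c genes that are not pseudogenes. The family was followed across 57 livers of male wild-type C57BL/6JJcl mice. Each mouse was 6 weeks old on arrival, rested for 1 week, fasted for 12 h before dosing, and its liver was taken 24 h after dosing.

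By gavage, 4 mice received alpha-naphthyl isothiocyanate (ANIT, a toxicant of bile ducts), 6 received acetaminophen (APAP), 7 received 4,4'-methylene dianiline (MDA, another bile duct toxicant) and 5 received thioacetamide (TAA). Their controls were 13 mice given 0.5% methylcellulose by gavage (Ctrl). Intraperitoneally, 7 mice received carbon tetrachloride (CCl4) and 4 received galactosamine (GAL), with 2 mice on 0.9% saline as controls (CIP). Intravenously, 7 mice received the plant lectin concanavalin A (ConA), with 2 mice on 0.9% saline as controls (CIV). The labels give no amount of any compound, so potency cannot be compared. They also name corn oil among the vehicles, and no corn oil control was analysed here, so for any compound given in it the effects of compound and vehicle cannot be told apart. The series was made to test deconvolution, the estimation of cell proportions from whole-tissue RNA.

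Cyp2c enzymes sit in the endoplasmic reticulum of hepatocytes, take electrons from NADPH-cytochrome P450 reductase, and oxidise drugs and endogenous lipids. Several mouse members turn arachidonic acid into epoxides or hydroxylated acids, and Cyp2c70 makes the muricholic acids that set mouse bile apart from human bile. Some members are induced through the nuclear receptors CAR and PXR, and liver expression of the family depends on hepatocyte transcription factors such as HNF4A. In many models of liver injury and inflammation, P450 messenger RNA is known to fall.

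The genes are much alike in sequence, and this bears on every value below. Coding sequences read from GENCODE M21 transcripts gave 3 groups holding members, joined at 90% protein identity or more. Cyp2c37, Cyp2c50 and Cyp2c54 formed the first, Cyp2c38 and Cyp2c39 the second, and Cyp2c40 and Cyp2c67 the third, together with the non-members Cyp2c68 and Cyp2c69. Of the stretches of 31 bases in a member's transcripts, the share found in no other gene was 15.5% for Cyp2c40, 32.4% for Cyp2c67, 52.6% for Cyp2c37, 52.1% for Cyp2c50 and 57.7% for Cyp2c54. It was 73.1% for Cyp2c39, 83.4% for Cyp2c38, 89.7% for Cyp2c29, 97.1% for Cyp2c55 and 100% for Cyp2c70. Reads of the near-identical genes may have been split wrongly between them, so each of the 3 groups was also tested as 1 summed row.

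Estimated counts per library summed to between 13826343 and 35075809, and mitochondrial transcripts made up 5.11% to 39.3% of a library (median 14.5%). Levels are given in CPM, edgeR's unit of counts relative to the library total, with the totals scaled by TMM factors. The deposited values look corrected for transcript length, so levels of different genes were compared on that per-length basis. Nothing in the labels says whether mice of a group were caged or processed apart, so p-values measure the spread between these mice.

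Some libraries went against their labels, judged on 12358 genes without any Cyp2c gene. The library labelled ANIT 1 correlated more with the other 6 MDA livers (mean r 0.411) than with ANIT 2 to 4 (0.215), and the library labelled MDA 1 more with ANIT 2 to 4 (0.432) than with the other MDA livers (0.176). Of 61 genes that separated ANIT 2 to 4 from the other 6 MDA livers, the library labelled ANIT 1 lay on the MDA side in 61 and the library labelled MDA 1 on the ANIT side in 50. The library labelled APAP 1 correlated at 0.437 with the ConA livers and at -0.095 with the other APAP livers. In all, 8 treated livers correlated more with another group than with their own. The libraries labelled ANIT 1, MDA 1 and APAP 1 did so by over 0.1. The others were APAP 2, 6, 8 and 11 and MDA 2, by 0.012 to 0.044, so APAP 4 alone was closest to the APAP group. The log2 fold changes of members in ANIT, APAP and MDA against Ctrl are given with and without the 3 libraries over that margin. That setting was added after the data were seen.

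In the 17 vehicle livers, Cyp2c29, a CAR-inducible member that forms arachidonic acid epoxides, had the highest level at 1042 ± 174 CPM (SD, n = 17). Cyp2c50 followed at 680 ± 197 CPM and Cyp2c70 at 460 ± 226 CPM. Cyp2c54 stood at 234 ± 55.1 CPM, Cyp2c37 at 129 ± 38.5, Cyp2c67 at 107 ± 32.4 and Cyp2c40 at 87.1 ± 54.5. The remaining members were scarce, with Cyp2c38 at 14.4 ± 4.05 CPM, Cyp2c55 at 5.75 ± 1.98 and Cyp2c39 at 0.833 ± 0.425. Each gene lay above its next neighbour in this order in 17 of 17 livers, except Cyp2c37 above Cyp2c67 in 13 and Cyp2c67 above Cyp2c40 in 12. The ranges of mean ± SD overlapped between Cyp2c29 and Cyp2c50, Cyp2c50 and Cyp2c70, Cyp2c70 and Cyp2c54, Cyp2c37 and Cyp2c67, and Cyp2c67 and Cyp2c40.

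The vehicle groups were first compared with each other by edgeR's quasi-likelihood test, with a gene called at a Benjamini-Hochberg adjusted p under 0.05. Between CIP and Ctrl 0 of 10 members and 0.0131% of all genes were called, and DESeq2 called 0 members and 0.658% of the genes it fitted. At an unadjusted p under 0.05 stood 1 member (Cyp2c39) and 3.75% of all genes. Between CIV and Ctrl 0 of 10 members and 0.0263% of all genes were called by edgeR, 0 members and 0.347% of genes by DESeq2, and 1 member (Cyp2c55) and 3.82% of all genes had an unadjusted p under 0.05 in edgeR. With 2 saline mice a group, these comparisons had little power. Within Ctrl some members differed by mouse number. Cyp2c40 was at 115 to 209 CPM in mice 1 to 4, 49.2 to 105 in mice 7 to 12 and 19.7 to 49.3 in mice 15 to 18. Cyp2c70 showed the same order, with 595 to 1166, 426 to 549 and 196 to 356 CPM, so the 3 ranges did not overlap in Cyp2c70. Cyp2c37, Cyp2c50 and Cyp2c54 were lower in mice 15 to 18 than in all other Ctrl mice, and the ranges of Cyp2c29, Cyp2c38, Cyp2c39, Cyp2c55 and Cyp2c67 overlapped. What the numbers stand for is not in the labels. Alternative fits used them as ranges, as a covariate or as a block.

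**Figure D1:**
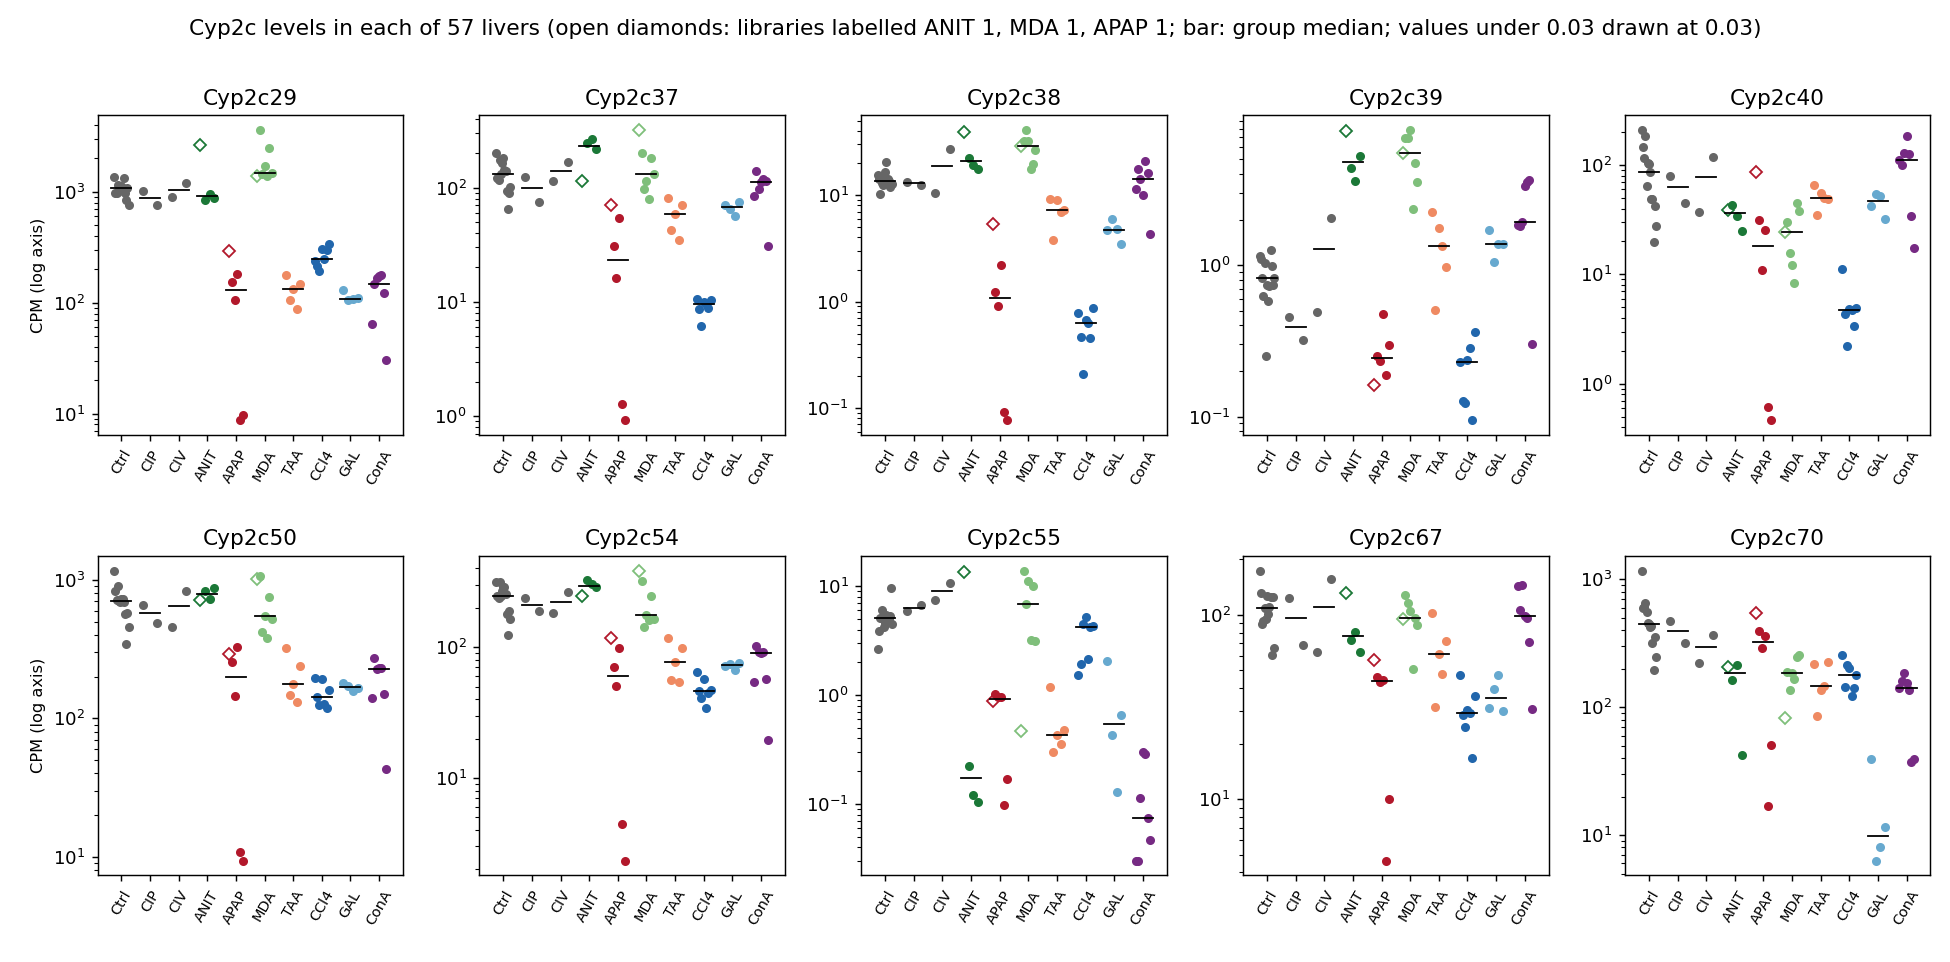
Level of each Cyp2c member in CPM on a log axis (livers at 0 drawn at the bottom of the axis), 1 point per liver in 10 groups, with a bar at the group median. Cyp2c29 in the 7 MDA livers lies between 1389 and 3610 CPM, above all 17 vehicle livers, and Cyp2c37 in the 7 CCl4 livers between 6.14 and 10.6 CPM, below all of them.

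Summed over the 10 members, the family made up 1670 to 4615 CPM in vehicle livers (median 2875). The sum lay below that range, with no overlap, in TAA (508 to 1096 CPM), CCl4 (577 to 828), GAL (504 to 572), ConA (217 to 1058) and APAP (47.7 to 1464). In ANIT (2408 to 4183) and MDA (2256 to 5596) it overlapped the vehicle range. The lowest sums were those of APAP 8 at 47.7 CPM and APAP 11 at 84.0 CPM, while the other 4 APAP livers held 662 to 1464. In bulk tissue, fewer hepatocytes and less messenger RNA per hepatocyte cannot be told apart.

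**Figure D2:**
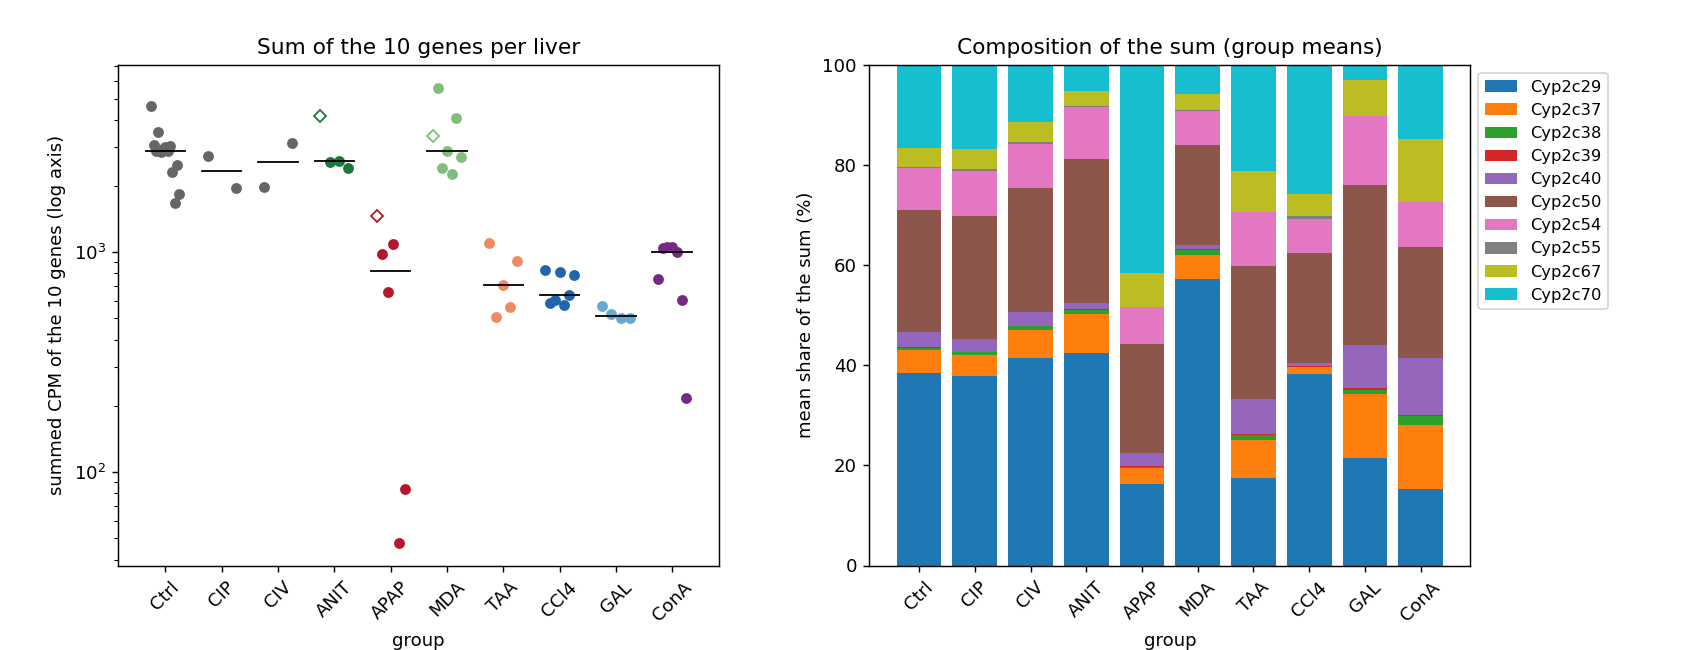
Left, summed CPM of the 10 Cyp2c members on a log axis, with a point for each of the 57 livers and a bar at the group median. Right, mean share of each member in that sum for each group, in percent and stacked by member. Livers given APAP, TAA, CCl4, GAL or ConA hold 47.7 to 1464 CPM and vehicle livers 1670 to 4615.

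Member by member, the 7 compounds split into those that lowered most of the family and those that did not. Against the vehicle of the same route, APAP lowered 8 of 10 members and raised 0, against 14.6% of all tested genes lower and 17.3% higher. TAA lowered 8 and raised 1 (24% and 26.4% of all genes). CCl4 lowered 8 of the 9 members that passed the filter on low counts and raised 0 (15.6% and 18%), and GAL lowered 7 of 10 and raised 1 (15.7% and 12.8%). ConA lowered 4 of 10 and raised 0 (17.3% and 16.8%). ANIT lowered 1 and raised 3 (14.2% and 14%), and MDA lowered 2 and raised 3 (16.4% and 17.4%). The median log2 fold change over the tested members was -2.02 in APAP, -1.88 in CCl4, -1.51 in GAL, -1.32 in TAA, -0.83 in ConA, 0.23 in ANIT and 0.11 in MDA, and the median of all genes lay between -0.01 and 0.10. With a block on mouse number, 0 members were called for APAP, beside 1.65% of all genes, although its falls were then larger for 9 of 10 members.

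The larger control set of all 17 vehicle livers gave like counts. APAP lowered 8 members and raised 0 (15.3% and 18.1% of all genes), TAA 8 and 0 (24.5% and 25.2%), CCl4 10 and 0 (27.2% and 26.2%) and GAL 8 and 0 (27.5% and 25.1%). ConA lowered 5 and raised 1 (33.7% and 34.3%), ANIT lowered 1 and raised 3 (14.5% and 13.5%), and MDA lowered 2 and raised 3 (17.1% and 17.2%). Both control sets share the mice of the route vehicle, so the 2 sets of counts are not independent. The members gained with CCl4 were Cyp2c55 and Cyp2c39, the latter untested against CIP. GAL gained Cyp2c37 as a fall and lost the call of Cyp2c39, and TAA also lost its call of Cyp2c39 (0.74, edgeR adjusted p = 0.07996). ConA gained Cyp2c70 as a fall and Cyp2c39 as a rise. ANIT, APAP and MDA had the same members called against both control sets.

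Without the 3 libraries that went against their labels, ANIT lowered 2 members and raised 3 (13.9% and 13.5% of all genes), APAP lowered 9 and raised 0 (14.5% and 14.5%), and MDA lowered 2 and raised 3 (17% and 17.8%). The member gained in ANIT was Cyp2c55 and in APAP Cyp2c40. Without APAP 8 and 11, a setting also added after the data were seen, APAP lowered 8 members and raised 0, with a median log2 fold change of -1.48 (22.5% of all genes called in either direction).

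**Figure D3:**
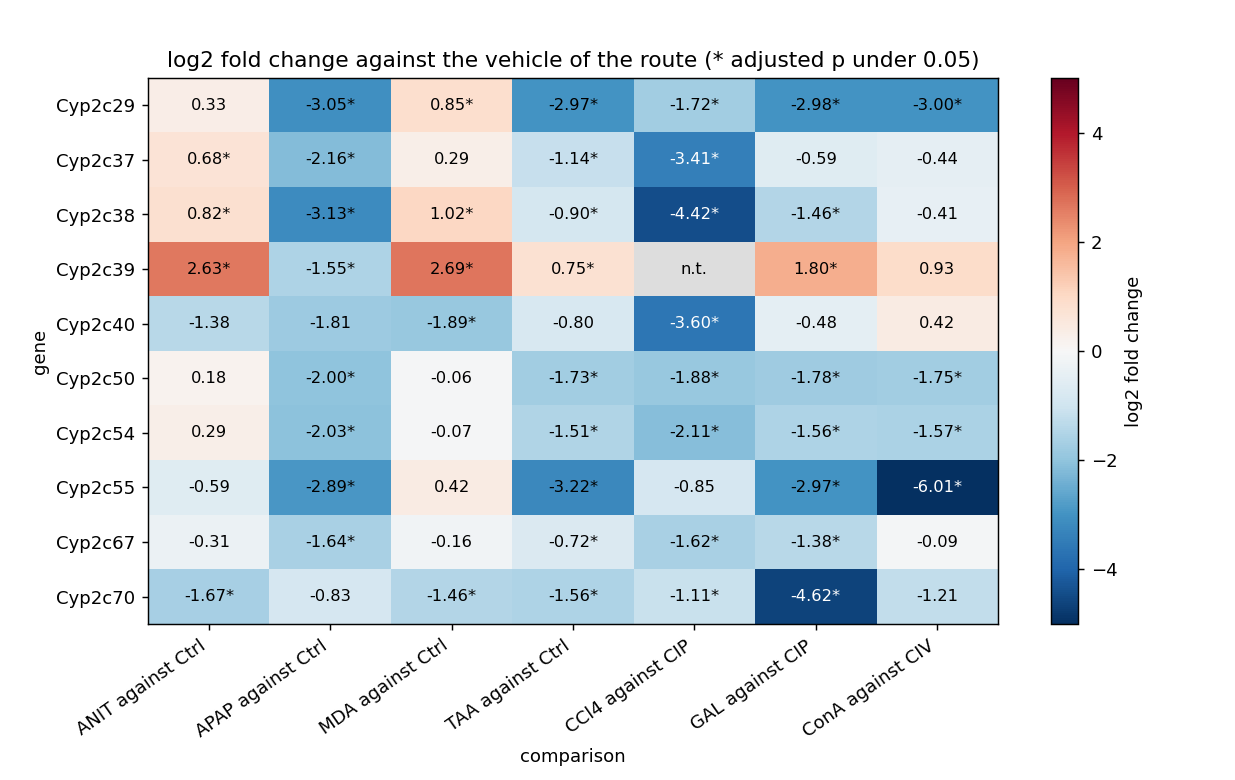
Log2 fold change of each Cyp2c member (rows) for each compound against its route vehicle (columns), with the value printed in each cell. An asterisk marks values called at an adjusted p under 0.05, and n.t. a member not tested. The APAP, TAA, CCl4 and GAL columns hold mostly falls, and Cyp2c39 in ANIT (2.63) and MDA (2.69) holds the largest rises.

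Cyp2c29 was called under 6 of the 7 compounds, as was Cyp2c38. In the 13 Ctrl livers it ranged from 756 to 1364 CPM with a median of 1088. The 7 MDA livers had 1389 to 3610 CPM (median 1468), so all of them lay above every vehicle liver. The log2 fold change was 0.85 ± 0.17 (SE, edgeR adjusted p = 0.0005628), a 1.81-fold rise, and 0.92 without the library labelled MDA 1. It was not called among mice numbered 1 to 4 (0.85, edgeR adjusted p = 0.1388), with a block on mouse number (0.67, edgeR adjusted p = 0.06224) or with all 10 groups in 1 model (0.85, edgeR adjusted p = 0.05956). In ANIT the library labelled ANIT 1 had 2668 CPM and ANIT 2, 3 and 4 had 850, 955 and 872 CPM. The whole group gave 0.33 ± 0.23 (edgeR adjusted p = 0.3193), and the 3 others alone gave -0.25 (edgeR adjusted p = 0.233), so neither was called and the sign turned with that library.

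Under the other 5 compounds Cyp2c29 fell, and all treated livers lay below all 17 vehicle livers. The 5 TAA livers had 178, 106, 132, 88.3 and 149 CPM, a 7.85-fold fall (log2 fold change -2.97 ± 0.19, edgeR adjusted p = 2.153e-10). The 4 GAL livers had 130, 105, 108 and 110 CPM against 1015 and 759 in CIP, a 7.87-fold fall (-2.98 ± 0.19, edgeR adjusted p = 0.001919). These GAL livers spread little, with an SD of 11.3 CPM. The 7 ConA livers had 30.6 to 178 CPM (median 149) against 895 and 1191 in CIV, a 7.99-fold fall (-3.00 ± 0.47, edgeR adjusted p = 0.0009981). APAP livers had 8.73 to 295 CPM (median 130; log2 fold change -3.05 ± 0.55, edgeR adjusted p = 0.0002988). The highest of them was the library labelled APAP 1, and without it the log2 fold change was -3.53. In CCl4 the fall was 3.29-fold, with 193 to 341 CPM (median 247; -1.72 ± 0.20, edgeR adjusted p = 0.0002159).

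Cyp2c38 and Cyp2c39, which are 92.0% identical in protein sequence, are arachidonic acid oxidases of low abundance in liver. Cyp2c39 had 0.251 to 1.26 CPM in Ctrl, which is 5.53 to 31.2 estimated counts, so its fold changes rest on few reads. The 4 ANIT livers had 7.69, 4.36, 3.58 and 5.26 CPM and the 7 MDA livers 2.37 to 7.83 (median 5.54), all above every vehicle liver. The rises were 6.2-fold in ANIT (log2 fold change 2.63 ± 0.25, edgeR adjusted p = 1.723e-06) and 6.44-fold in MDA (2.69 ± 0.23, edgeR adjusted p = 5.095e-08). Without the libraries labelled ANIT 1 and MDA 1 they were 2.39 and 2.68 on the log2 scale, both called. Of the members, Cyp2c39 thus had the largest rise under both compounds.

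Cyp2c38 rose with it, but less. Ctrl livers had 10.3 to 20.7 CPM. The ANIT livers had 39.2, 22.6, 19.4 and 17.7 CPM, a 1.76-fold rise (log2 fold change 0.82 ± 0.17, edgeR adjusted p = 0.002023), with 2 of 4 livers above every Ctrl liver but 1, the library labelled ANIT 1, above all 17 vehicle livers. The MDA livers had 17.8 to 41.0 CPM (median 29.1), a 2.03-fold rise (1.02 ± 0.14, edgeR adjusted p = 1.354e-05), with 5 of 7 above every Ctrl liver and 4 above all 17. The ANIT rise kept its size but not its call among mice numbered 1 to 4 (0.89, edgeR adjusted p = 0.05719), with a block on number (0.84, edgeR adjusted p = 0.05968) and with all groups in 1 model (0.82, edgeR adjusted p = 0.1527). Leaving out the libraries labelled ANIT 1 and MDA 1 gave 0.51 and 1.01 against Ctrl, both called. Against all 17 vehicle livers the ANIT rise was then not called (0.47, edgeR adjusted p = 0.08709), while the MDA rise was (0.98).

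The pair parted under several other compounds. Cyp2c38 fell in TAA (9.27, 3.78, 9.07, 6.87 and 7.20 CPM; log2 fold change -0.90 ± 0.18, edgeR adjusted p = 0.0003704), while Cyp2c39 rose there by 0.75 ± 0.31 (edgeR adjusted p = 0.04836). The call of this rise was lost under each of the 11 other settings that kept all TAA mice or split them by number, and when TAA 1, 6 or 7 was left out (edgeR or DESeq2 adjusted p 0.05075 to 0.5911). In GAL, Cyp2c38 fell (4.67, 5.91, 4.78 and 3.46 CPM against 13.4 and 12.6; -1.46 ± 0.25, edgeR adjusted p = 0.008959) and Cyp2c39 rose (1.71, 1.05, 1.39 and 1.37 CPM against 0.457 and 0.322; 1.80 ± 0.42, edgeR adjusted p = 0.02395). The call, though not the size, of that rise was lost without CIP 7, CIP 8, GAL 7 or GAL 8 (1.56 to 2.16), and 0 of 4 GAL livers lay above all 17 vehicle livers, against which the gene was at 0.68 without a call (edgeR adjusted p = 0.1032). The call of Cyp2c38 in GAL was lost without CIP 7 (-1.35, edgeR adjusted p = 0.06126), with library totals alone (-0.70, edgeR adjusted p = 0.08399) and with all 10 groups in 1 model (-1.46, edgeR adjusted p = 0.07114). That model also ended the call of Cyp2c38 in TAA (-0.95, edgeR adjusted p = 0.05428).

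Both fell in APAP, by 3.13 ± 0.57 on the log2 scale for Cyp2c38 (0.0766 to 5.32 CPM, median 1.07; edgeR adjusted p = 0.0003558) and by 1.55 ± 0.30 for Cyp2c39 (0.163 to 0.474 CPM, median 0.243; edgeR adjusted p = 0.0006795). All 6 APAP livers lay below every vehicle liver in Cyp2c38 and 3 of 6 in Cyp2c39. The highest Cyp2c38 value was that of the library labelled APAP 1, without which the fall deepened from 8.73-fold to 15.5-fold (-3.95), while Cyp2c39 was at -1.46, both called. At the other end, APAP 8 and 11 had 0.0922 and 0.0766 CPM of Cyp2c38, and the next lowest, APAP 4, had 0.906. In CCl4, Cyp2c38 had 0.207 to 0.862 CPM (median 0.635), a 21.4-fold fall (-4.42 ± 0.36, edgeR adjusted p = 2.709e-05), the deepest fall of any member under that compound. Cyp2c39 was at 0.0945 to 0.361 CPM in CCl4 and was not tested against CIP. Against all 17 vehicle livers it fell by 1.997 in log2 units (edgeR adjusted p = 2.652e-05). In ConA neither was called against CIV, with 4.33 to 20.9 CPM for Cyp2c38 and 0.303 to 3.65 CPM for Cyp2c39, while Cyp2c39 rose by 1.58 against all 17 vehicle livers (edgeR adjusted p = 0.0001962).

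With Cyp2c38 and Cyp2c39 summed into 1 row, the pair rose in ANIT (log2 fold change 1.01 ± 0.16) and MDA (1.19 ± 0.14), and fell in APAP (-2.97), TAA (-0.73), CCl4 (-4.03) and GAL (-1.14). It was not called in ConA (-0.28 ± 0.50). Cyp2c38 was the more abundant of the 2 in 55 of 57 livers, all but APAP 8 and 11. The ratio of the 2 genes, which was looked at after their values were seen and has no test, was 1.74 to 9.21 Cyp2c39 per 100 of Cyp2c38 in vehicle livers. It was above that range in every ANIT (18.5 to 29.7), MDA (13.2 to 24.4), TAA (13.4 to 24.1), CCl4 (20.7 to 59.5) and GAL (17.7 to 39.6) liver, in 6 of 7 ConA livers (6.98 to 33.7) and in 5 of 6 APAP livers. The APAP ratio ran from 3.06 to 389.9, the widest range of any group, on few reads.

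Cyp2c37, Cyp2c50 and Cyp2c54 lie close together in sequence (91.2% to 94.5% protein identity) and oxidise arachidonic acid. Their upstream sequences are shown because Cyp2c37 parted from Cyp2c50 in several groups although the 2 windows are 86.6% identical over 300 bases (250 before and 50 after the annotated start). Cyp2c50 holds no match to the motifs searched. Printed are the 250 bases of each RefSeq window before the start, on chromosome 19 of GRCm38.p6, plus strand, at chr19:39992174-39992423 for Cyp2c37 and chr19:40089429-40089678 for Cyp2c50. Capitals mark a match to TTGCNNAA, the core of a C/EBP site, found on the opposite strand in Cyp2c37. All shares of windows count the full 300 bases. Windows with this motif on either strand made up 10.8% of 32851 RefSeq windows and 3 of the 10 of the family. The table of windows listed 9 of the 10 members (2 windows for Cyp2c39). A match is a description of letters and not a site. 
Cyp2c37: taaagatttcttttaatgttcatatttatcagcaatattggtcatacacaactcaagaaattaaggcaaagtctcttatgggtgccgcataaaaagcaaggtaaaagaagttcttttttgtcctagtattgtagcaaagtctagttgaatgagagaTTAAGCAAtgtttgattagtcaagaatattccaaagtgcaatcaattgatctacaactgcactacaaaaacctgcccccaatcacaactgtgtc
Cyp2c50: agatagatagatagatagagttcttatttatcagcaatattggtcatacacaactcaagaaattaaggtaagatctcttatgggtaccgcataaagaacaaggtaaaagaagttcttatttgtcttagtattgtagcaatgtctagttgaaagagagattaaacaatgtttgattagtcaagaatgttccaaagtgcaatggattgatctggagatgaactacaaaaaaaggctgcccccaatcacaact

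Cyp2c37 showed the deepest CCl4 fall of the 3. CCl4 livers had 6.14 to 10.6 CPM (median 9.52) against 123 and 75.5 in CIP, with no overlap with any vehicle liver. The fall was 10.6-fold (log2 fold change -3.41 ± 0.20, edgeR adjusted p = 7.074e-06). Cyp2c50 fell by 1.88 ± 0.21 (118 to 196 CPM, median 141, against 660 and 485; edgeR adjusted p = 0.0001396) and Cyp2c54 by 2.11 ± 0.19 (34.5 to 64.9 CPM, median 46.2, against 236 and 187; edgeR adjusted p = 4.957e-05).

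Under GAL and ConA the order was the other way round. Cyp2c50 fell in GAL (179, 170, 159 and 164 CPM; log2 fold change -1.78 ± 0.18, edgeR adjusted p = 0.0024), as did Cyp2c54 (71.3, 74.0, 67.2 and 75.5 CPM; -1.56 ± 0.16, edgeR adjusted p = 0.002649). With all 10 groups in 1 model Cyp2c54 kept its size without a call (-1.55, edgeR adjusted p = 0.05606). Cyp2c37 was at 69.8, 65.4, 56.1 and 75.01 CPM and was not called against CIP (-0.59 ± 0.25, edgeR adjusted p = 0.1163), but was called against all 17 vehicle livers (-0.99, edgeR adjusted p = 0.001374). With libraries scaled by their totals alone, the median of all genes moved to 0.84 in GAL, 0.53 in CCl4, 0.22 in APAP, -0.23 in ANIT and -0.56 in ConA, and Cyp2c37 in GAL was at 0.16, below that median. In ConA, Cyp2c50 (43.0 to 272 CPM, median 227, against 455 and 833) fell by 1.75 ± 0.47 (edgeR adjusted p = 0.01672) and Cyp2c54 (19.5 to 103 CPM, median 89.9, against 181 and 263) by 1.57 ± 0.44 (edgeR adjusted p = 0.01939). Both calls were lost without CIV 8 (-1.28 and -1.30, edgeR adjusted p = 0.1708 and 0.1398), and that of Cyp2c54 also without CIV 7 (-1.78, edgeR adjusted p = 0.05268). All 7 ConA livers were below all 17 vehicle livers in both genes, and both were called against those 17 (-1.78 and -1.59). Cyp2c37 in ConA had 30.98 to 138 CPM and was not called (-0.44 ± 0.41, edgeR adjusted p = 0.4342).

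In TAA the 3 genes fell, with 35.1 to 81.6 CPM for Cyp2c37 (log2 fold change -1.14 ± 0.25, edgeR adjusted p = 0.0007818), 131 to 322 for Cyp2c50 (-1.73 ± 0.26, edgeR adjusted p = 1.624e-05) and 54.6 to 118 for Cyp2c54 (-1.51 ± 0.23, edgeR adjusted p = 2.053e-05). In APAP they fell 4.47-fold, 4.01-fold and 4.09-fold, over wide ranges of 0.921 to 70.5, 9.30 to 325 and 2.32 to 117 CPM. Without APAP 8 and 11 the log2 fold changes were -1.6, -1.45 and -1.48, and without the library labelled APAP 1 they were -2.67, -2.24 and -2.39, all called. In ANIT, Cyp2c37 rose (113, 245, 267 and 217 CPM; 0.68 ± 0.25, edgeR adjusted p = 0.04772), with its lowest value in the library labelled ANIT 1. Without that library the rise was 0.88 (edgeR adjusted p = 0.01204), and without ANIT 2, 3 or 4 it was not called (adjusted p 0.143, 0.1964 and 0.09802 by edgeR). The call was lost in 7 of 11 other settings, among them Ctrl mice numbered 1 to 4, the numbers of all ANIT mice (0.44, edgeR adjusted p = 0.3305), the number range as a covariate (0.46, edgeR adjusted p = 0.3256), a block on number (0.44, edgeR adjusted p = 0.4793) and library totals alone (0.50, edgeR adjusted p = 0.119). Cyp2c50 and Cyp2c54 were not called in ANIT with that library (0.18 and 0.29) or without it (0.225 and 0.36). In MDA the 3 genes were at 0.29, -0.06 and -0.07, and without the library labelled MDA 1 at 0.03, -0.19 and -0.25, with none called in either case.

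As 1 summed row, Cyp2c37, Cyp2c50 and Cyp2c54 fell in APAP (log2 fold change -2.03), TAA (-1.59), CCl4 (-2.05), GAL (-1.54) and ConA (-1.44, edgeR adjusted p = 0.02871). The row was not called in ANIT (0.27) or MDA (-0.01). Vehicle livers held 14.7 to 24.9 Cyp2c37 per 100 of Cyp2c50, a ratio also chosen after the values were seen. All 7 CCl4 livers lay below (4.91 to 7.50), and all ConA (42.8 to 76.4), GAL (35.4 to 45.6) and TAA (25.3 to 33.4) livers above.

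**Figure D4:**
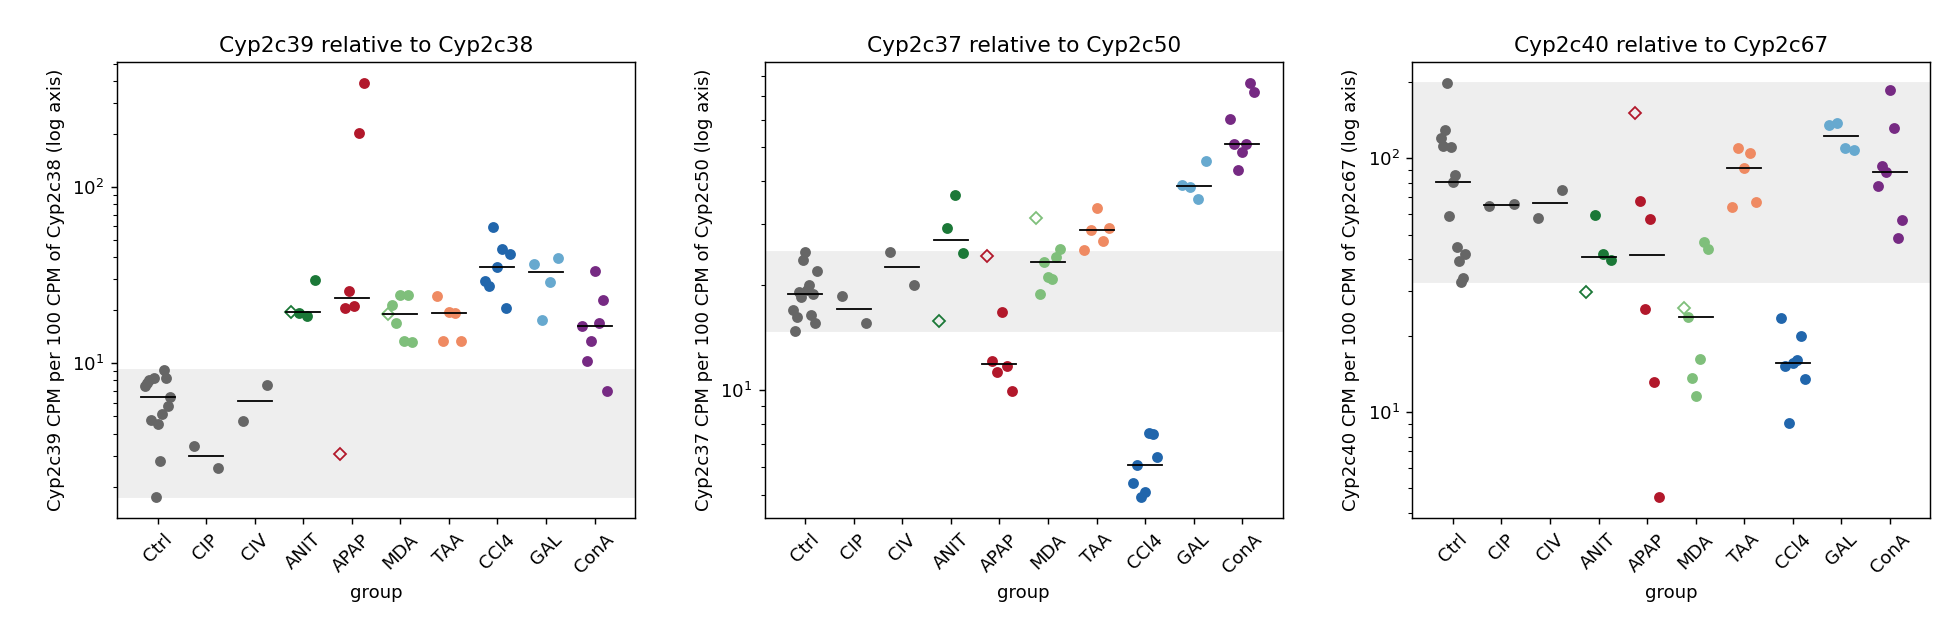
Ratios within near-identical groups of Cyp2c members per liver, on a log axis, with the range of the 17 vehicle livers shaded. Cyp2c37 per 100 of Cyp2c50 lies at 4.91 to 7.50 in CCl4 and 42.8 to 76.4 in ConA, outside the vehicle range of 14.7 to 24.9.

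Cyp2c55, a member known from the colon and inducible in liver by CAR and PXR activators, had 2.66 to 9.57 CPM in Ctrl (36.5 to 189 estimated counts). In ConA it was nearly absent, at 0 in ConA 2 and 3 and 0.0470 to 0.299 CPM in the other 5 livers, against 7.49 and 10.7 in CIV. That is 0 to 4.88 estimated counts against 229 and 332. The fitted value, -6.01 ± 0.66 in log2 units (edgeR adjusted p = 0.0001519) depends on the count added to every library, but the ranges of CPM did not overlap.

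In ANIT the livers split. The library labelled ANIT 1 had 13.5 CPM, above every vehicle liver, while ANIT 2, 3 and 4 had 0.224, 0.121 and 0.105 CPM, below every vehicle liver. With all 4, Cyp2c55 was not called (log2 fold change -0.59 ± 0.79, edgeR adjusted p = 0.6209), and without that library it fell by 5.08 (edgeR adjusted p = 1.712e-07), on 1.95 to 4.44 estimated counts per liver. MDA mirrored this, since the library labelled MDA 1 had 0.464 CPM and the other 6 had 3.13 to 13.9. Cyp2c55 was not called in MDA with it (0.42, edgeR adjusted p = 0.3931) or without it (0.63, edgeR adjusted p = 0.07361).

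Cyp2c55 also fell in TAA (1.19, 0.301, 0.428, 0.358 and 0.476 CPM; log2 fold change -3.22 ± 0.33, edgeR adjusted p = 1.298e-07) and in APAP (0.0969 to 1.02 CPM, median 0.924; -2.89 ± 0.39, edgeR adjusted p = 1.959e-05), with all livers below every vehicle liver. Without the library labelled APAP 1 the APAP value was -2.99, also called. In GAL it stood at 2.05, 0.427, 0.128 and 0.651 CPM, a log2 value of -2.97 ± 0.84 (edgeR adjusted p = 0.04108). Without CIP 7, CIP 8, GAL 4 or GAL 8 it was not called, at -2.99, -2.94, -2.77 and -2.88, nor with library totals alone (-2.15, edgeR adjusted p = 0.08667) or no filter on low counts (-2.91, edgeR adjusted p = 0.07046). CCl4 livers kept more of it, at 1.53 to 5.22 CPM (median 4.27), not called against CIP (-0.85 ± 0.42, edgeR adjusted p = 0.1582) and called against all 17 vehicle livers (-0.77, edgeR adjusted p = 0.009137).

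Cyp2c70 makes muricholic acid, Cyp2c40 hydroxylates arachidonic acid, and Cyp2c67 is a near neighbour of Cyp2c40 in sequence. Their upstream sequences are shown because these 3 windows of the 10 in the family hold CAAAGTCCA, a motif of the kind bound by HNF4A. It was found on either strand in 0.47% of 32851 RefSeq windows. The 250 bases before the start lie on the minus strand of GRCm38.p6, at chr19:40187287-40187536 for Cyp2c70, chr19:39649043-39649292 for Cyp2c67 and chr19:39812815-39813064 for Cyp2c40. Capitals mark matches to CAAAGTCCA, to TATAAA (13.62% of all windows, 7 of the 10), to AGGTCA (16.26%, 3 of the 10), to TTGCNNAA and to GTTAAT (7.1%, 1 of the 10), on either strand. In Cyp2c40 the TATAAA match begins 41 bases after the start and the TTGCNNAA match 5 bases before it, running past the printed end, so both are counted but not marked. A further motif searched, TGTTTAC, lay in 3.65% of all windows and in 3 of the 10, none of them printed here. CAAAGTCCA begins 64 bases before the start in Cyp2c70, 125 in Cyp2c67 and 45 in Cyp2c40. In Cyp2c67 and Cyp2c40 the bases on both sides of it are the same, and the annotated starts lie at different distances from this shared stretch. These matches are therefore not independent. Matches do not show binding. 
Cyp2c70: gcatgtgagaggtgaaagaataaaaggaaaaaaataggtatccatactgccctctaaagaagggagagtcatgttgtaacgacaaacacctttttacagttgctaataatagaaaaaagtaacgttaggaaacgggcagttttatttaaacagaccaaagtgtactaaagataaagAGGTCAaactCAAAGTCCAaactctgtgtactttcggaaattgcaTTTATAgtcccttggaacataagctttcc
Cyp2c67: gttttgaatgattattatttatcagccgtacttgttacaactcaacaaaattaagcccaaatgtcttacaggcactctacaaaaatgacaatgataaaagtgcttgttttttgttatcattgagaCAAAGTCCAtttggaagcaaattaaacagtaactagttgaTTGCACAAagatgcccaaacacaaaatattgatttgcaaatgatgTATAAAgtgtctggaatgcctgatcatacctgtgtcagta
Cyp2c40: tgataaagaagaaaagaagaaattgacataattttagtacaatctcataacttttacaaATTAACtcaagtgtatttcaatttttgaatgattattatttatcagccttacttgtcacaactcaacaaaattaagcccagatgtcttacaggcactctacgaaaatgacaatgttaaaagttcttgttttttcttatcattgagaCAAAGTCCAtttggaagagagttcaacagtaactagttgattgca

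Cyp2c70 was nearly lost in GAL. The 4 livers had 39.5, 6.29, 8.11 and 11.5 CPM against 473 and 318 in CIP, a 24.6-fold fall (log2 fold change -4.62 ± 0.75, edgeR adjusted p = 0.008118). No other member fell as far in GAL. All 4 lay below every vehicle liver, and against all 17 the log2 fold change was -4.86. The gene fell less in CCl4, at 121 to 255 CPM (median 179; 2.17-fold, edgeR adjusted p = 0.008301), a call lost without CIP 7 (log2 fold change -0.77, edgeR adjusted p = 0.1279) and with all 10 groups in 1 model (-1.14, edgeR adjusted p = 0.2099).

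Cyp2c70 also fell with 3 gavage compounds. ANIT livers had 204, 162, 215 and 41.9 CPM against 196 to 1166 in Ctrl (log2 fold change -1.67 ± 0.44, edgeR adjusted p = 0.008697), MDA livers 81.9 to 256 (median 184; -1.46 ± 0.29, edgeR adjusted p = 0.0006615) and TAA livers 216, 84.7, 136, 146 and 224 (-1.56 ± 0.35, edgeR adjusted p = 0.0009018). Ranges touched those of Ctrl, with 2 of 4 ANIT, 5 of 7 MDA and 3 of 5 TAA livers below every Ctrl liver. Without the libraries labelled ANIT 1 and MDA 1 the log2 fold changes were -1.82 and -1.33, both called. The MDA fall was -2.37 among mice numbered 1 to 4 (edgeR adjusted p = 0.003487) and -0.76 among mice numbered above 4, where it was not called (edgeR adjusted p = 0.07146). The ANIT mice were all numbered 1 to 4, and against the Ctrl mice of those numbers their fall was -2.29 (edgeR adjusted p = 0.01474). APAP livers had 16.8 to 542 CPM (median 324), not called (-0.83 ± 0.50, edgeR adjusted p = 0.2204), nor without the library labelled APAP 1 (-1.16, edgeR adjusted p = 0.1142), and ConA livers 36.9 to 185 (median 142), not called against CIV (-1.21 ± 0.53, edgeR adjusted p = 0.1028) but called against all 17 vehicle livers (-1.81, edgeR adjusted p = 4.401e-05).

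Cyp2c40 varied most among vehicle livers relative to its level, from 19.7 to 209 CPM. It fell in CCl4 to 2.23 to 11.1 CPM (median 4.71), below every vehicle liver (log2 fold change -3.60 ± 0.44, edgeR adjusted p = 0.0002538). In MDA it had 8.27 to 45.2 CPM (median 24.5; -1.89 ± 0.45, edgeR adjusted p = 0.002716), with 3 of 7 livers below every Ctrl liver. The MDA fall was -3.00 among mice numbered 1 to 4 (edgeR adjusted p = 0.001362) and -0.99 among mice numbered above 4, where it was not called (edgeR adjusted p = 0.2377), and it stayed at -1.89, called, without the library labelled MDA 1. The ANIT livers had 39.0, 43.6, 33.9 and 24.96 CPM, all within the Ctrl range, and were not called with the library labelled ANIT 1 (-1.38 ± 0.52, edgeR adjusted p = 0.05476) or without it (-1.43, edgeR adjusted p = 0.09179). The ANIT fall was called with the range of mouse numbers as a covariate (-2.21), with a block on number (-2.20) and against Ctrl mice numbered 1 to 4 alone (-2.23). APAP livers had 0.464 to 85.8 CPM (median 18.3; -1.81 ± 0.78, edgeR adjusted p = 0.08083), with the highest value in the library labelled APAP 1. Without it the gene fell by 2.75 in log2 units (edgeR adjusted p = 0.01557). The APAP fall was also called with all libraries kept and the range of mouse numbers as a covariate (-2.37, edgeR adjusted p = 0.01507). Cyp2c40 was not called in TAA (34.8 to 65.5 CPM; -0.80), GAL (32.4 to 54.6 CPM; -0.48) or ConA (17.6 to 183 CPM; 0.42), and with library totals alone it was at 0.26 in GAL and -0.18 in ConA, on the same side of the median of all genes (0.84 and -0.56) as with TMM.

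Cyp2c67 fell in APAP (4.62 to 56.9 CPM, median 43.9; log2 fold change -1.64 ± 0.38, edgeR adjusted p = 0.002958) and CCl4 (16.8 to 47.4 CPM, median 29.4; -1.62 ± 0.32, edgeR adjusted p = 0.003726), with all livers below every vehicle liver. In GAL (31.2, 39.6, 47.3 and 30.0 CPM; -1.38 ± 0.31, edgeR adjusted p = 0.02117) and TAA (31.7 to 102 CPM; -0.72 ± 0.25, edgeR adjusted p = 0.01994) it also fell. The call was lost without CIP 7 in CCl4 (-1.11, edgeR adjusted p = 0.07745), without CIP 7, GAL 4 or GAL 8 in GAL (-0.83, -1.41 and -1.29) and without TAA 3 or 7 in TAA (-0.55 and -0.65). It was also lost in GAL with library totals alone (-0.65, edgeR adjusted p = 0.1561) and in TAA with all 10 groups in 1 model (-0.78, edgeR adjusted p = 0.0599). ANIT (-0.31), MDA (-0.16) and ConA (-0.09) left it without a call. Without the libraries that went against their labels it was at -1.85 in APAP, called, and at -0.57 in ANIT and -0.15 in MDA, not called. As 1 summed row with Cyp2c68 and Cyp2c69, Cyp2c40 and Cyp2c67 fell in APAP (-1.46), MDA (-0.82), TAA (-0.68), CCl4 (-1.65) and GAL (-1.11), and were not called in ANIT (-0.70, edgeR adjusted p = 0.07793) or ConA (0.09).

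Compounds given by the same route were then set directly against each other. Between ANIT and MDA 0 of 10 members and 0% of all genes were called by edgeR, with 0 members and 9.38% of all genes at an unadjusted p under 0.05, and DESeq2 called 0 members and 0.794% of the genes it fitted. Without the libraries labelled ANIT 1 and MDA 1, 1 member was called against 4.59% of all genes. This was Cyp2c55, lower in ANIT (log2 difference -5.71 ± 0.71, edgeR adjusted p = 0.003996), and Cyp2c29 was at -1.17 ± 0.34 without a call (edgeR adjusted p = 0.08163). MDA against TAA gave 8 members, 7 higher in MDA and Cyp2c40 lower (30% of all genes), and without the library labelled MDA 1 the same 7 higher and 0 lower (29.5%). Cyp2c29 was 14.4-fold higher in MDA than in TAA (3.84 ± 0.33, edgeR adjusted p = 4.937e-06) and Cyp2c55 12.7-fold (3.66 ± 0.70, edgeR adjusted p = 0.001622). ANIT against TAA gave 6 members, all higher in ANIT (26.2% of all genes, 24.1% without the library labelled ANIT 1).

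APAP was then set against the other gavage compounds. ANIT was higher than APAP in 3 members (5.98% of all genes, 16.2% without the libraries labelled ANIT 1 and APAP 1), which were Cyp2c29, Cyp2c38 and Cyp2c39. APAP was lower than MDA in 4, the same 3 and Cyp2c55 (9.43% of all genes, 13.6% without the libraries labelled APAP 1 and MDA 1). Without APAP 8 and 11, ANIT was higher than APAP in 6 members (2.45% of all genes), and APAP differed from MDA in 9, with 8 lower and Cyp2c70 higher (5.89%). Between APAP and TAA 1 member was called (2.62% of all genes), Cyp2c39, lower in APAP (log2 difference -2.27 ± 0.43, edgeR adjusted p = 0.0228). Without the library labelled APAP 1, Cyp2c38 was also lower (-3.02 ± 0.72, edgeR adjusted p = 0.01922; 14.4% of all genes).

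The 2 intraperitoneal compounds differed in 8 of 10 members, beside 42.5% of all genes called. Lower in CCl4 than in GAL were Cyp2c40 (log2 difference -3.23 ± 0.34), Cyp2c38 (-3.06 ± 0.31), Cyp2c37 (-2.92 ± 0.14, edgeR adjusted p = 7.209e-08), Cyp2c39 (-2.75 ± 0.34) and Cyp2c54 (-0.65 ± 0.15). Higher in CCl4 were Cyp2c70 (3.41 ± 0.50, edgeR adjusted p = 0.0002499), Cyp2c55 (2.04 ± 0.61) and Cyp2c29 (1.16 ± 0.16). Cyp2c50 (-0.21 ± 0.15) and Cyp2c67 (-0.34 ± 0.24) were not called. The doses of CCl4 and GAL are not in the labels.

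The make-up of the family shifted with these changes. Cyp2c29 made up 38.7% ± 5.28 (SD, n = 17) of the summed CPM in vehicle livers, 57.3% ± 7.55 (n = 7) in MDA, 17.6% ± 2.16 (n = 5) in TAA, 16.4% ± 2.92 (n = 6) in APAP and 15.3% ± 3.60 (n = 7) in ConA. Cyp2c70 made up 16.0% ± 3.75 in vehicle livers, 41.5% ± 9.97 in APAP and 3.00% ± 2.64 (n = 4) in GAL. Cyp2c40 and Cyp2c67 together with Cyp2c37 took larger shares in ConA, at 11.4%, 12.5% and 12.8% against 2.93%, 3.89% and 4.67% in vehicle livers. Shares of 1 sum are tied to each other, so these are descriptions.

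Across the 57 livers the members' levels followed each other to different degrees. Pearson's r of log2(CPM + 1) ranged over the 45 pairs from -0.139 (Cyp2c39 with Cyp2c70) to 0.991 (Cyp2c50 with Cyp2c54), and 5 of the pairs are near-identical genes that share reads. The median r with the other members was highest for Cyp2c37 (0.808) and Cyp2c67 (0.795) and lowest for Cyp2c55 (0.348) and Cyp2c39 (0.422). Both of the latter were the scarcest members in vehicle livers, where counting error and the added 1 weigh most. The part of scarcity in their low r was not tested. The livers share groups, so these values describe the compounds as much as the mice. After the group means were taken out, the median over all pairs was 0.680, against 0.601 before. All 57 livers were kept under their labels for this step. Among them were the libraries that went against their labels and the APAP livers with the lowest sums. The part of those livers in the value of 0.680 was not tested. That value therefore cannot be read as shared variation between mice given the same compound.

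**Figure D5:**
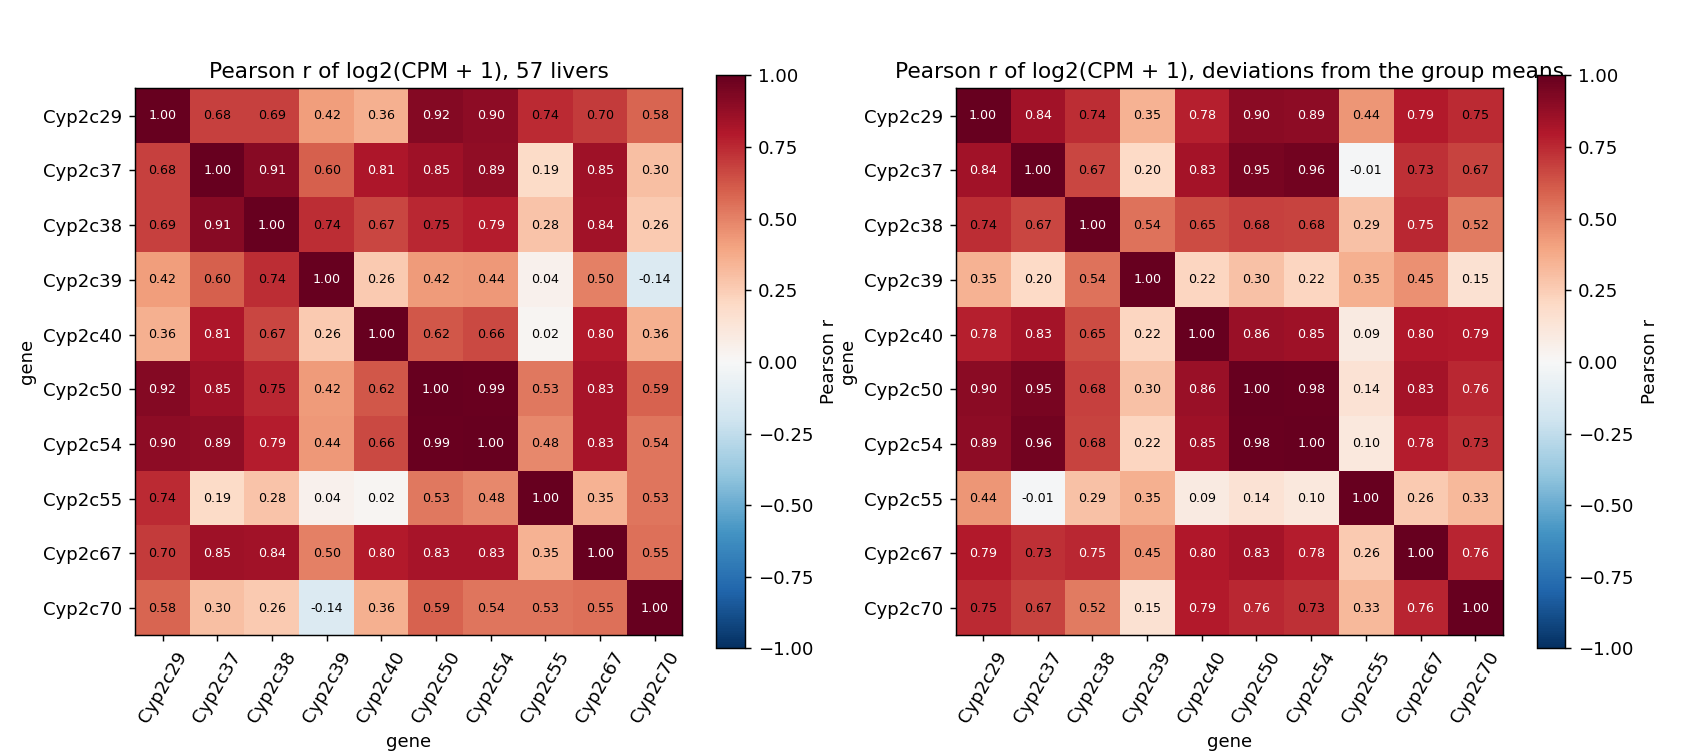
Pearson's r of log2(CPM + 1) between pairs of Cyp2c members over 57 livers, coloured from negative to positive. Cyp2c50 and Cyp2c54 have the highest r (0.991), while Cyp2c39 and Cyp2c55, the scarcest members, have the lowest median r, at 0.422 and 0.348.

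Outside the family, among 5900 genes whose mean over the livers reached 10 CPM, Cyp2c37 was most like Cyp2e1, a pericentral P450 (r = 0.936), and Phyh (0.918). Cyp2c40 was also most like Cyp2e1 (0.869), followed by Ces3b (0.866). Cyp2c29 was most like the carboxylesterase Ces1g (0.907) and Etnppl (0.905), Cyp2c50 like Ces1d (0.895) and Etnppl (0.883), and Cyp2c54 like Cyp27a1 (0.892) and Ces1d (0.891). Cyp2c38 was most like Ugt1a1, the bilirubin-conjugating enzyme and a CAR target (0.927), and Phyh (0.859). Cyp2c55 was most like the glutathione transferases Gstm2 (0.870) and Gstm6 (0.859), Cyp2c67 like Pon1 (0.904) and F13b (0.896), and Cyp2c70 like Afm (0.904) and Hao1 (0.876). Cyp2c39 had no close likeness, with 0.781 to Psmd12 and 0.779 to Atl2. Each r covers 57 livers in 10 groups.

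Genes that act with the family were read from lists. Each count below stands beside the share of all genes called lower and higher, which was 14.6% and 17.3% in APAP, 24% and 26.4% in TAA, 15.6% and 18% in CCl4, 15.7% and 12.8% in GAL, 17.3% and 16.8% in ConA, 14.2% and 14% in ANIT, and 16.4% and 17.4% in MDA. Without the libraries that went against their labels these shares were 14.5% and 14.5% in APAP, 13.9% and 13.5% in ANIT, and 17% and 17.8% in MDA. Of 10 CAR and PXR target genes outside Cyp2c, MDA raised 8 of the 9 tested and lowered 1, Cyp2b9, with Cyp2b10, the classical CAR target, up by 3.25 on the log2 scale and Cyp3a11 up by 1.58. The counts were 8 and 1 of 10 without the library labelled MDA 1. In ANIT 4 of 10 rose and 0 fell, with Cyp2b10 up by 2.12, Cyp3a13 by 1.64 and Ugt1a1 by 0.69. Without the library labelled ANIT 1, 4 rose and 1 fell, with Cyp2b10 at 0.87 and Cyp3a11 at -1.05. TAA lowered 7 and raised 0, ConA 6 and 0, APAP 5 and 0 (3 and 0 without the library labelled APAP 1), CCl4 5 and 1 of 9, and GAL 4 and 0 of 9. The log2 fold change of Cyp2b10 was -2.5 in APAP, -2.11 in TAA and -3.20 in GAL.

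Among 14 nuclear receptors and liver transcription factors known to act on Cyp2c genes, TAA lowered 9 and raised 2, CCl4 lowered 8 and raised 0, ConA 6 and 2, APAP 5 and 0, GAL 3 and 0, ANIT 2 and 6, and MDA 2 and 3. Without the libraries that went against their labels the counts were 2 lower and 7 higher in ANIT, 6 and 0 in APAP and 5 and 2 in MDA. Nr1i3, which encodes CAR, fell in ConA (log2 fold change -2.27) and in APAP (-0.63). Nr1i2, which encodes PXR, rose in MDA by 1.15, and Hnf4a rose in ANIT by 0.90. Cebpa fell in CCl4 (-1.92), TAA (-1.56) and MDA (-1.08). Nr0b2, a repressor induced by the bile acid receptor, fell in ConA (-5.96), TAA (-3.57) and GAL (-3.12), and rose in ANIT by 1.18 and in MDA by 1.09.

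Of 7 genes for electron supply and haem, MDA raised 5 and lowered 2, ANIT raised 4 and lowered 2, TAA raised 3 and lowered 3, ConA 3 and 3, CCl4 2 and 3, APAP 1 and 4, and GAL 1 and 3. Without the libraries that went against their labels the counts in MDA, ANIT and APAP were the same. Por, the reductase that feeds P450s, rose in ANIT by 1.77, in MDA by 1.68 and in TAA by 1.20 on the log2 scale. Hmox1, which degrades haem, rose with all 7 compounds, by 1.59 in CCl4 to 3.69 in TAA. Alas1, the first enzyme of haem synthesis, rose in ANIT by 1.83 and in MDA by 1.18.

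Of 9 bile acid synthesis genes that work with Cyp2c70, APAP lowered 9, TAA, CCl4 and GAL 8 each, ConA 6, and ANIT and MDA 5 each, and 0 rose with any compound when all libraries were kept. Without the libraries labelled ANIT 1 and MDA 1, ANIT lowered 3 and raised 1, and MDA lowered 6. Cyp7a1, the rate-limiting enzyme, fell in APAP (log2 fold change -4.72), ConA (-4.59), TAA (-4.00), MDA (-3.82) and ANIT (-2.95), the last not called without the library labelled ANIT 1 (-2.54). Cyp8b1, which directs synthesis to cholic acid, fell in GAL (-7.05) and TAA (-5.25). Of 12 epoxide hydrolases and other arachidonic acid enzymes, 8 to 11 were tested per compound. CCl4 lowered 6 and raised 0, APAP 5 and 0, GAL 3 and 2, ConA 2 and 3, and ANIT, MDA and TAA lowered 1 each and raised 4, 2 and 2. Without the library labelled MDA 1, MDA lowered 3 and raised 1, and without that labelled APAP 1, APAP lowered 4 and raised 0. Ephx1, the microsomal epoxide hydrolase, rose in ANIT (0.89) and MDA (0.71), and Ephx2, which hydrolyses arachidonic acid epoxides, fell in CCl4 (-1.998).

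Cell-type markers moved beside the members, and their part in the results was not tested. Of 10 pericentral hepatocyte markers, APAP lowered 9, TAA, MDA and CCl4 8 each, GAL 6, and ANIT and ConA 5 each. Their summed level was 109 to 4261 CPM in APAP and 889 to 1347 in CCl4, against 3982 to 6050 in Ctrl and 4586 to 5190 in CIP. No pericentral marker was called higher with all libraries kept. Of 9 periportal markers, CCl4 lowered 9, GAL 8, TAA 7, APAP 5, MDA and ConA 3 each and ANIT 2, while ANIT and MDA raised 2 each, TAA and ConA 1 each and the others 0, with summed levels of 1097 to 1645 CPM in GAL against 7107 to 9460 in CIP. General hepatocyte markers fell in GAL (7 of 7) and CCl4 (5 of 7), with summed levels of 25450 to 33300 and 20170 to 30650 CPM against 55940 to 61990 in CIP. The other compounds moved as many of these 7 up as down or more, with 2 higher and 1 lower in APAP, 2 and 2 in TAA and MDA, and 1 and 1 in ANIT and ConA, and the summed levels overlapped those of the controls. Without the library labelled APAP 1, APAP had 1 higher and 2 lower, and without the library labelled ANIT 1, ANIT had 1 and 2. Neutrophil markers rose in 6 of 6 in TAA (158 to 820 CPM against 2.11 to 61.0 in Ctrl) and in 4 of 5 in ConA (126 to 287 against 7.83 and 8.85 in CIV). They also rose in 4 of 4 tested in GAL (24.9 to 40.5 CPM against 5.33 and 5.37 in CIP), 3 of 5 in CCl4 (10.5 to 72.7 CPM), 3 of 4 in APAP (13.2 to 263.6 CPM), 2 of 4 in MDA and 1 of 4 in ANIT. Monocyte and macrophage markers rose in 5 of 6 in APAP (197 to 388 CPM against 67.6 to 219.7 in Ctrl), 3 of 6 in TAA and GAL, 2 of 6 in CCl4 and 1 of 6 in MDA, while 1 of 5 rose and 1 fell in ConA and 2 of 5 fell in ANIT. Stellate cell markers rose in 4 of 6 in APAP, and fell in 5 of 6 in MDA, 3 in ANIT, 2 in ConA and 1 in CCl4, with 1 up and 1 down in TAA and 0 called in GAL. Cholangiocyte markers rose in 2 of 5 in APAP, TAA and ConA, with 1 up in MDA, 1 up and 2 down in ANIT and 0 called in CCl4 and GAL. Of 6 sinusoidal endothelial markers, TAA lowered 4 and raised 2, ConA 3 and 2, CCl4 3 and 0, ANIT and MDA 2 and 1 each, APAP 1 and 2 and GAL 0 and 0. Kupffer cell markers fell in ConA in 5 of 5 (22.9 to 49.8 CPM against 277 and 280), where the mitochondrial share was 14.6% to 39.3%, against 6.79% and 25.4% in CIV. Of these 5 markers 2 rose and 0 fell in GAL, 1 rose and 2 fell in CCl4, and 1 rose and 1 fell in ANIT, APAP, MDA and TAA each. Of the T, NK and B cell markers tested, 2 of 5 fell in ANIT and 2 of 4 in MDA, 1 of 5 rose and 1 fell in TAA, and 0 were called in APAP, CCl4, GAL and ConA.

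Some of these marker counts moved without the libraries that went against their labels. In ANIT, 1 stellate marker fell instead of 3, 0 neutrophil markers rose instead of 1, 1 cholangiocyte marker fell instead of 2, and 1 T, NK and B cell marker fell instead of 2. Pericentral markers in ANIT went from 5 lower and 0 higher to 6 lower and 1 higher. In APAP, 3 stellate markers rose instead of 4, 2 endothelial markers fell instead of 1, and 6 periportal markers fell instead of 5. In MDA, 3 neutrophil markers rose instead of 2, 9 pericentral markers fell instead of 8, 4 periportal markers fell instead of 3, and 3 T, NK and B cell markers fell instead of 2. Apart from the general hepatocyte markers given above, the other counts of these lists in ANIT, APAP and MDA were the same.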

How the data were processed

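Liver RNA of 57 mice was sequenced from stranded mRNA libraries, single-end, per the labels' protocols. The authors deposited 1 table of estimated counts for 54307 genes by Ensembl ID, and the submitters' processing notes name Salmon 1.6.0, R 4.1.3 and GRCm39 with no role. The smallest value above 0 of a gene in the deposited table fell with transcript length (Spearman rho -0.953 over 4405 genes with 1 transcript), so they look length-corrected. Symbols came from GENCODE M21 (51482 genes matched, 2825 did not).

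Values were rounded to whole numbers and each pair of groups was fitted in edgeR 4.0.16 (R 4.3.3; TMM, filterByExpr, quasi-likelihood test, two-sided, Benjamini-Hochberg over all tested genes, threshold 0.05), with no covariate. DESeq2 1.42.0 and other settings were alternatives. The fits were also run on counts simulated from edgeR's own model with independent mice. That cannot show how they perform with doubtful labels, shared reads or length-corrected values. The precision of each value is limited by library totals of 13826343 to 35075809 and, for scarce members, by counting error. From each gene list at most 3 called genes per comparison, those with the largest change, are named. As most alike, the 2 genes outside Cyp2c with the highest Pearson's r of log2(CPM + 1) were taken, provided they averaged 10 CPM or more. Protein identity used the longest reading frame of GENCODE M21 transcripts, in place of a planned RefSeq protein table. Mouse numbers do not pair the samples. The members and gene lists were chosen with earlier results of these data known. The settings without the libraries labelled ANIT 1, MDA 1 and APAP 1, and without APAP 8 and 11, were added after the data were seen.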

Additional observations from a re-analysis of the deposited data

Results flagged for a closer look

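Each of the 10 members was looked at in each of the 7 treated groups, which hold 4 to 7 livers, and in 9 of these 70 cases 1 liver stood far from the others. Chance gives about 1 in 20 for independent cases, but these share livers and near-identical genes, with 4 of the 9 from ConA 12, so the count cannot be read against that share. In ANIT the library labelled ANIT 1 was the highest in Cyp2c29, at 2668 CPM, and in Cyp2c55, at 13.52 CPM. This is the library that correlated more with the MDA livers than with the other ANIT livers. ConA 12 was the lowest ConA liver in Cyp2c37 (30.98 CPM), Cyp2c39 (0.3027 CPM), Cyp2c50 (43.02 CPM) and Cyp2c54 (19.45 CPM). In CCl4 the liver numbered 6 was the lowest in Cyp2c37, at 6.141 CPM. In TAA the liver numbered 1 was the highest in Cyp2c55, at 1.192 CPM. In MDA the liver numbered 7 was the lowest in Cyp2c67, at 51.01 CPM. The part of cell composition or RNA quality in these livers was not tested.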

How the results depend on the processing

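Depth limits the scarce members: the median was 4.6 estimated counts for Cyp2c39 in CCl4, 15.7 for Cyp2c39 in Ctrl and 0.9412 for Cyp2c55 in ConA. In addition, the 2 saline mice of CIP and CIV limit every comparison with them. No result reversed where its reported value was called. The cause of each change below was not tested.

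Counts of called members moved as follows, each with the share of all genes called under the same setting. For ANIT, all groups in 1 model gave 2 (17.9%, against 28.2% as reported). For APAP, mice numbered 1 to 4 gave 5 (6.28%) and those above 4 gave 4 (20.2%, against 31.8%). For MDA, mice above 4 gave 3 (20.6%, against 33.8%). For GAL, library totals alone gave 5 (41%, against 28.5%), and for ConA mice above 4 gave 2 (21.7%, against 34.2%). Between ANIT and APAP the count was 1 with no filter on low counts (1.37%), 6 with DESeq2 (9.1% of the genes it fitted) and 6 without APAP 8 and 11 (2.45%). Between APAP and MDA it was 8 with DESeq2 (9.12%) and 9 without APAP 8 and 11 (5.89%). Between APAP and TAA it was 0 with no filter (0.527%) and 2 without the library labelled APAP 1 (14.4%), and between ANIT and MDA it was 1 without the libraries labelled ANIT 1 and MDA 1 (4.59%). Leaving out 1 mouse gave 3 to 5 members for ANIT (17.5% to 27.4% of all genes), 8 to 9 for APAP (27.2% to 32.4%), 5 to 5 for MDA (28.8% to 34.8%), 7 to 9 for TAA (45.2% to 50.9%), 6 to 8 for CCl4 (18% to 36.2%), 4 (without CIP 7) to 8 for GAL, with 5 without GAL 8 (9.49% to 42.5%), and 2 (without CIV 8) to 4 for ConA (23.9% to 36.1%). Calls also ended, with no sign turned, for Cyp2c37, Cyp2c38 and Cyp2c39 in APAP and Cyp2c38 and Cyp2c67 in TAA among mice numbered 1 to 4, and for Cyp2c37, Cyp2c39, Cyp2c50 and Cyp2c54 in APAP, Cyp2c50 and Cyp2c54 in ConA and Cyp2c67 in GAL among mice above 4. For Cyp2c37 in ANIT the call also ended with all groups in 1 model (0.67), no filter (0.68) and Ctrl mice above 12 left out (0.49), and for Cyp2c39 in GAL with no filter (1.84). Where 1 saline mouse was left, it was assumed to vary like the treated mice.

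With a replicate block on mouse number, 0 members were called for APAP, ANIT against APAP, ANIT against TAA, APAP against MDA and APAP against TAA, and 5 for MDA against TAA. Only mice whose number occurs in both groups bear on a fold change with the block. There were 4 such numbers for APAP, APAP against MDA and MDA against TAA. For ANIT against APAP and APAP against TAA there were 3, and for ANIT against TAA 2. The block called 1.65% of all genes for APAP, 0.861% for ANIT against TAA, 10.4% for MDA against TAA and 0% for the other 3. The falls in APAP were larger with the block for 9 of 10 members (Cyp2c29 -3.60 against -3.05 without it, Cyp2c37 -3.19 against -2.16), and smaller for Cyp2c55 (-2.65 against -2.89). The block also ended the calls of Cyp2c29 in MDA, Cyp2c37 and Cyp2c38 in ANIT, and Cyp2c39 in TAA and GAL. It gained a call of Cyp2c40 in ANIT (-2.20, edgeR adjusted p = 0.01863). Same-numbered livers showed mean correlations of 0.04 (ANIT), 0.06 (APAP), -0.03 (MDA), 0.14 (TAA) and 0.04 (GAL) with their controls, so the numbers were not taken as pairs. No paired analysis was possible because of too few shared numbers for CCl4 and ConA, which share 1 with their controls, or for CCl4 against GAL, which share 1.

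Signs turned for uncalled members only, and the members whose sign turned with library totals alone kept their side of the median of all genes, which that scaling moved to 0.84 in GAL and -0.56 in ConA. In ANIT, Cyp2c29 was at -0.2505 without the library labelled ANIT 1 (leave-one-out range -0.2505 to 0.4894), and Cyp2c50 at -0.1767 with the replicate block, -0.1964 with the number range as covariate and -0.2103 in mice 1 to 4. In MDA, Cyp2c37 was at -0.0132 with the replicate block, and leaving out 1 mouse gave -0.208 to 0.0315 for Cyp2c50 and -0.2465 to 0.0223 for Cyp2c54. In GAL, library totals alone gave 0.1578 for Cyp2c37 and 0.2589 for Cyp2c40, whose leave-one-out range was -0.8784 to 0.0673. In ConA, Cyp2c38 was at 0.0065 against all 17 vehicle mice (leave-one-out -0.9223 to 0.4029), Cyp2c40 at -0.1835 with library totals alone (leave-one-out -0.1654 to 1.4519), and Cyp2c67 ranged from -0.5798 to 0.6691.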
